A study of Mus musculus with 10 samples.

Results

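The genes described here are 10 components of the switch that carries a cell from G1 into S phase: the D cyclins Ccnd1, Ccnd2 and Ccnd3, the E cyclins Ccne1 and Ccne2, the kinases Cdk2, Cdk4 and Cdk6, the kinase inhibitor Cdkn1b and the retinoblastoma gene Rb1. They were found by gene symbol, 10 of 10, among the 23337 genes of the authors' deposited comparison, and all 10 passed the authors' filter on low values. The libraries came from heart muscle cells of wild-type mice that were given AAV9, an adeno-associated virus, on postnatal day 1 at 5e+08 viral genomes per gram, with cells taken on postnatal day 14. In 5 libraries (GFP) the virus carried GFP alone, and in 5 others (dnMKL1) it carried GFP with dnMKL1, a dominant-negative form of the serum response factor (SRF) coactivator MKL1. The cTNT (cardiac troponin T) promoter, active in cardiomyocytes, drove the transgene in both groups, and both kept their normal copies of Mkl1. Cells were freed by collagenase perfusion and purified by fluorescence-activated sorting before RNA sequencing.

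D cyclins are the growth-responsive partners of Cdk4 and Cdk6. Their complexes phosphorylate the Rb1 protein, which releases E2F transcription factors and lets genes of DNA replication be transcribed, among them the E cyclins, which act with Cdk2. Cdkn1b (p27) binds these complexes and restrains Cdk2. Mouse cardiomyocytes largely leave the cell cycle in the first weeks after birth, with DNA synthesis that often ends in binucleation rather than division.

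The start of each D cyclin's coding sequence is shown because it carries the contact with the Rb1 protein, a feature that sets these cyclins apart from the other members and that their selection did not use. Capitals mark 5 codons that read, in frame, leucine, any residue, cysteine, any residue, glutamate (the LxCxE motif). Each line is the first 60 bases of the coding sequence in GENCODE M21 on GRCm38, 5′ to 3′, on the strand of the gene.
Ccnd1: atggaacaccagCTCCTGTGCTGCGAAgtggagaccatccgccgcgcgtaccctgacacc
Ccnd2: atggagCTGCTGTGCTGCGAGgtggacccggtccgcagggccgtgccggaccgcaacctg
Ccnd3: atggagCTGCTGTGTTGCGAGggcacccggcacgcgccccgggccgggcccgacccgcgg
The motif starts at codon 5 in Ccnd1 and at codon 3 in Ccnd2 and Ccnd3. No such run of codons was found anywhere in the longest coding sequence of the other 7 members. Among 21549 mouse genes with a complete coding sequence, 0.232% had the motif starting within the first 20 codons.

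Values per library were not used here, since the authors' deposited table gives only the group comparison: a base mean (normalized counts averaged over all libraries), a log2 fold change with its standard error (SE), and Wald p-values with Benjamini-Hochberg adjustment. Group levels below are implied means, computed from base mean and fold change, and a gene is said to have risen or fallen where the deposited adjusted p was under 0.05. Estimated library totals ran from 8802947 to 17123500 counts in GFP and from 8835151 to 17228537 in dnMKL1. The sign was read from Mkl1, whose implied mean was 83.9 normalized counts in GFP and 74899 in dnMKL1, vector reads included. By the deposited adjusted p, 34.1% of 14056 genes changed, 16.6% higher and 17.4% lower in dnMKL1. Scaling both groups to the same total adds 0.29 to every log2 fold change, and all changes here are relative to the authors' own scaling. As for cell types, 7 of 10 cardiomyocyte markers fell and 0 rose. All 10 had base means of 10000 or more, a level at which 70.7% of 140 genes fell and 3.57% rose. The share of these markers that fell was thus near that of all genes of this level. Those 140 genes include the 10 markers, so the comparison cannot part level from cell type. Of 12 fibroblast markers 6 rose and 0 fell, and 0 of 12 endothelial markers changed (0 also at an unadjusted p under 0.05). Among mural markers 3 of 9 rose (Cspg4, Myh11 and Tagln) and 1 fell (Acta2), and 1 of 9 macrophage markers tested rose. Of the mural list, Acta2 and Abcc9 had base means of 7726.5 and 7052 normalized counts. Pdgfrb, Rgs5 and Kcnj8, at 321, 268 and 124, were not called, and neither was Abcc9. Whether the Acta2 and Abcc9 reads came from mural cells or from cardiomyocytes was not tested. The erythroid markers Hba-a1 and Hba-a2 were listed at 0, and neither of the 2 erythroid genes tested changed (0 at an unadjusted p under 0.05).

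All 3 D cyclins rose in dnMKL1 and none of the other 7 members changed (0 also at an unadjusted Wald p under 0.05), so that 3 of 10 members were called, against 34.1% of all genes. Ccnd2, the D cyclin with the most reads, rose from an implied mean of 2386.5 to 3349 normalized counts. The authors' deposited table put the log2 fold change at 0.49 (SE 0.12, 95% Wald interval 0.25 to 0.73), a ratio of 1.4, with an adjusted Wald p of 3.3e-04. In genes of this level, with base means from 1000 to 10000, falling was the commoner direction: 40.1% of 1986 genes fell and 14.4% rose. Ccnd2 lies on chromosome 6 at 127125162-127152193 (GRCm38, minus strand).

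Ccnd3, on chromosome 17 at 47505051-47599691 (GRCm38, plus strand), rose from 996 to 1185 normalized counts. This is the smallest of the 3 shifts, 0.25 on the log2 scale in the authors' deposited table, and also the one measured most tightly (SE 0.08, interval 0.09 to 0.41, adjusted Wald p = 0.00716). Ccnd1, the D cyclin best known as a target of mitogen signalling, was the scarcest. It lies on chromosome 7 at 144929931-144939925 (GRCm38, minus strand), and its implied mean went from 84.4 normalized counts in GFP to 150 in dnMKL1. In the authors' deposited table its log2 fold change of 0.83 was the largest of the 10 and its SE of 0.34 among the largest, so that the interval reached from 0.16 to 1.5 (adjusted Wald p = 0.0439). With adjustment over every deposited p-value, Ccnd1 lost its call, at an adjusted Wald p of 0.0542, and Ccnd2 and Ccnd3 did not. The 3 intervals overlap, and differences among the D cyclins were not tested.

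**Figure D1:**
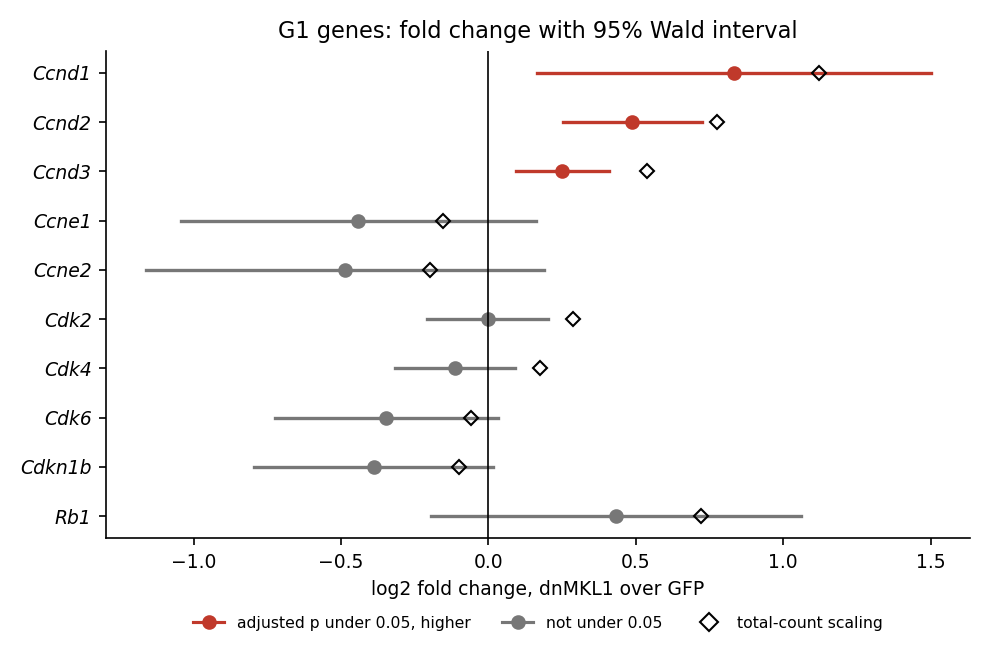
Log2 fold change of dnMKL1 over GFP (x axis) for the 10 members, with points for the value in the authors' deposited table and bars for the 95% Wald interval. Open diamonds show the value when both groups are scaled to the same total. The D cyclin bars (red) lie above 0, from 0.09 upward for Ccnd3, while the bars of the other 7 cross 0.

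D cyclins are also made by fibroblasts and endothelial cells, so the markers of those cells are given beside the rise. The fibroblast list summed to 5463 normalized counts in GFP and 9243 in dnMKL1, with none of its 12 markers at 0 and a median log2 fold change of 0.53. The endothelial list summed to 4678 in GFP and 4769 in dnMKL1, again with none of 12 at 0 and a median of 0.08. Its SEs ran from 0.245 to 0.524. The interval of Kdr, the endothelial marker with the largest base mean, was -0.48 to 0.67, which holds a shift as large as that of Ccnd2. The shifts in the fibroblast list were uneven. Fbln1 (748 to 1944 normalized counts) and Gsn (876 to 1951) had the largest log2 fold changes. All 12 fibroblast estimates were above 0, but 6 were not called, among them Pdgfra at 0.06 (SE 0.25) and Dcn at 0.27 (SE 0.16). In bulk libraries, a change in the number of cells of a type and a change in RNA per cell, in either direction, cannot be told apart. The part of these cells in the D cyclin result was not tested.

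Neither E cyclin changed. Ccne1 (chromosome 7, 38097984-38107534, GRCm38) was low in both groups, at 40.3 normalized counts in GFP and 29.7 in dnMKL1, and the authors' deposited table gave a log2 fold change of -0.44 (SE 0.31, interval -1.04 to 0.16, adjusted Wald p = 0.288). For Ccne2 (chromosome 4, 11191351-11204779, GRCm38) the implied means were 37.6 and 26.8, with a log2 fold change of -0.49 in the authors' deposited table (SE 0.34, interval -1.16 to 0.19, adjusted Wald p = 0.296). Both estimates were below 0. As ratios the intervals ran from 0.485 to 1.12 for Ccne1 and from 0.447 to 1.14 for Ccne2, so a shift as small as that of Ccnd3 was not detectable at this depth.

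Cdk2, the partner of the E cyclins, was nearly level. Its implied means were 388 normalized counts in GFP and 387 in dnMKL1 (chromosome 10, 128697939-128705031, GRCm38), and the authors' deposited table gave a log2 fold change of -0.0027 (SE 0.11, adjusted Wald p = 0.989). The interval, -0.21 to 0.20, leaves room for ratios between 0.865 and 1.15. That reading depends on scaling: with both groups of the authors' deposited table set to the same total, Cdk2 was higher by 0.29 with an adjusted Wald p of 0.017, and 47% of all genes were then called.

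Of the kinases that pair with D cyclins, Cdk4 (chromosome 10, 127063534-127067920, GRCm38) was the abundant one. It stood at 822 normalized counts in GFP and 760 in dnMKL1, and the authors' deposited table listed a log2 fold change of -0.11 (SE 0.10, interval -0.32 to 0.09, adjusted Wald p = 0.454). Total-count scaling of the authors' deposited table turned the sign, to 0.18, again past no threshold (adjusted Wald p = 0.159). Cdk6 (chromosome 5, 3341485-3531008, GRCm38) had 170 normalized counts in GFP and 134 in dnMKL1, with a log2 fold change of -0.35 in the authors' deposited table (SE 0.19, interval -0.73 to 0.03, adjusted Wald p = 0.164). Neither partner kinase of the D cyclins rose under the authors' scaling.

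Cdkn1b, whose protein restrains cyclin-kinase complexes, had 50.9 normalized counts in GFP and 38.9 in dnMKL1 (chromosome 6, 134920401-134925513, GRCm38). The authors' deposited table gave -0.39 (SE 0.21, interval -0.79 to 0.02, adjusted Wald p = 0.139) on the log2 scale, and it did not pass the test. Rb1, the substrate of the D cyclin kinases (chromosome 14, 73183673-73325822, GRCm38), had 217 and 293 normalized counts. Its log2 fold change of 0.43 in the authors' deposited table (adjusted Wald p = 0.323) was almost that of Ccnd2, yet its SE of 0.32 gave an interval from -0.19 to 1.06. Of its relatives, which bind E2F factors in resting cells, Rbl1 stood at -0.07 (SE 0.34) and Rbl2 at 0.05 (SE 0.11) on the log2 scale in the authors' deposited table, neither past the threshold.

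A shift between the groups that is common to all genes, such as that of total-count scaling, cancels in ratios between members. Rescaling of single libraries within a group need not cancel. From the authors' deposited table, the ratio of Ccnd2 to Cdk4 was 1.52 times as high in dnMKL1 as in GFP, that of Ccnd3 to Cdk4 was 1.29 times and that of Ccnd1 to Cdk4 was 1.93 times as high. Ccnd2 over Cdk6 was 1.78 times and Ccnd2 over Cdkn1b 1.84 times as high. On the E cyclin side the ratios went the other way, with Ccne1 over Cdk2 at 0.738 and Ccne2 over Cdk2 at 0.714 of their GFP values. These ratios come from group values without an error of their own and were not tested.

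Levels of different genes were compared per kilobase (kb) of merged exons. In GFP, Ccnd2 and Cdk4 stood at the top with 253.6 and 253 normalized counts per kb, followed by Ccnd3 (113.5), Cdk2 (62.4), Rb1 (36.1), Ccnd1 (17.9), Ccne1 (15.1), Cdk6 (12.1), Cdkn1b (11.2) and Ccne2 (10.8). The order was the same in dnMKL1, where Ccnd2 reached 356 and Cdk4 234 per kb. The order at the top rests on the length used: by longest coding transcript Ccnd3 led in GFP with 471 per kb, before Cdk4 (400.4) and Ccnd2 (377), and by longest transcript Cdk4 led Ccnd2 in GFP and Ccnd2 led Cdk4 in dnMKL1. Without values per library, which neighbours in this order differ beyond their spread could not be tested. Summed per kb, the D cyclins went from 385 to 523, a ratio of 1.36, while the 3 kinases went from 328 to 306.

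Among D cyclin transcripts per kb, Ccnd2 took 65.9% in GFP and 68.1% in dnMKL1, Ccnd3 took 29.5% and 25.8%, and Ccnd1 took 4.66% and 6.10%. Which D cyclin leads also rests on the length used, since the merged exons of Ccnd3 span 8775 bases and its longest coding transcript 2113. With the longest coding transcript, Ccnd3 took 54.1% and Ccnd2 43.3% in GFP. Among the kinases, Cdk4 made up 77.2% per kb in GFP and Cdk6 3.70%.

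**Figure D2:**
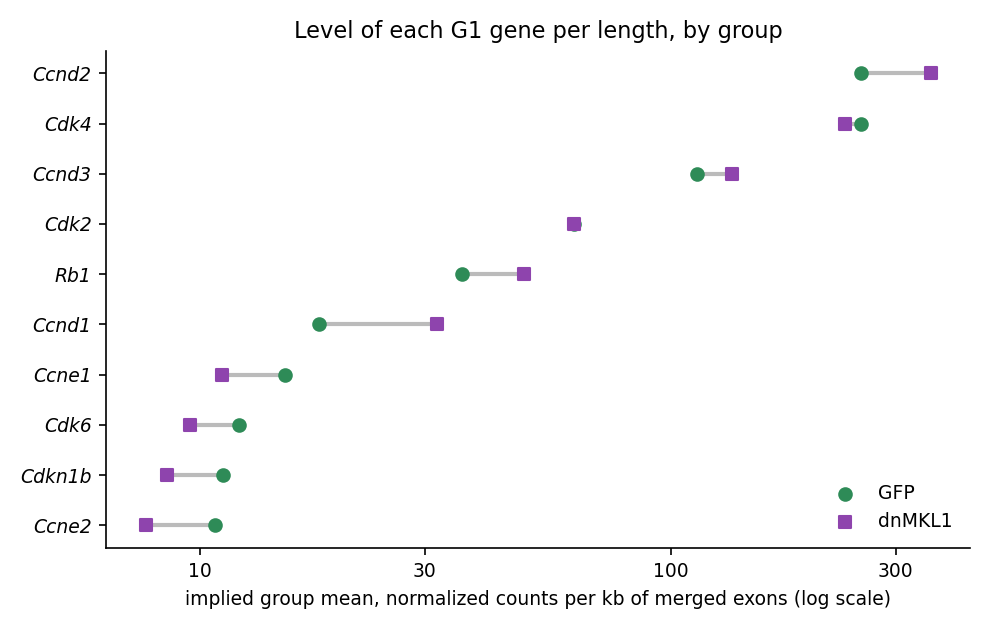
Implied group means per kb of merged exons (x axis, log scale) for the 10 members, with circles for GFP and squares for dnMKL1. Ccnd2 and Cdk4 lie near 253 in GFP and part in dnMKL1, to 356 and 234, while Ccne1, Ccne2, Cdk6 and Cdkn1b lie at 15.1 or below in both groups.

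The members differed in how far the libraries varied. For each gene the deposited SE was set against the median SE of genes whose base mean lay within a factor of 1.5. From the authors' deposited table, the SE of Rb1 was 2.57 times and that of Ccnd1 2.10 times that of such genes, and these were the 2 members whose SE exceeded that of more than 90% of them. For the other 8 members the ratio lay between 0.821 (Cdkn1b) and 1.32 (Cdk6). Large SEs were also seen in 11 of 12 endothelial markers and 18 of 25 genes of G2 and mitosis by the same mark, with median ratios of 2.83 and 1.79. The same held for 6 of 9 mural markers (median ratio 1.88), and for fewer of the S-phase genes, 6 of 25, and of the fibroblast markers, 2 of 12. Whether cells of any of these kinds vary between the libraries was not tested.

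**Figure D3:**
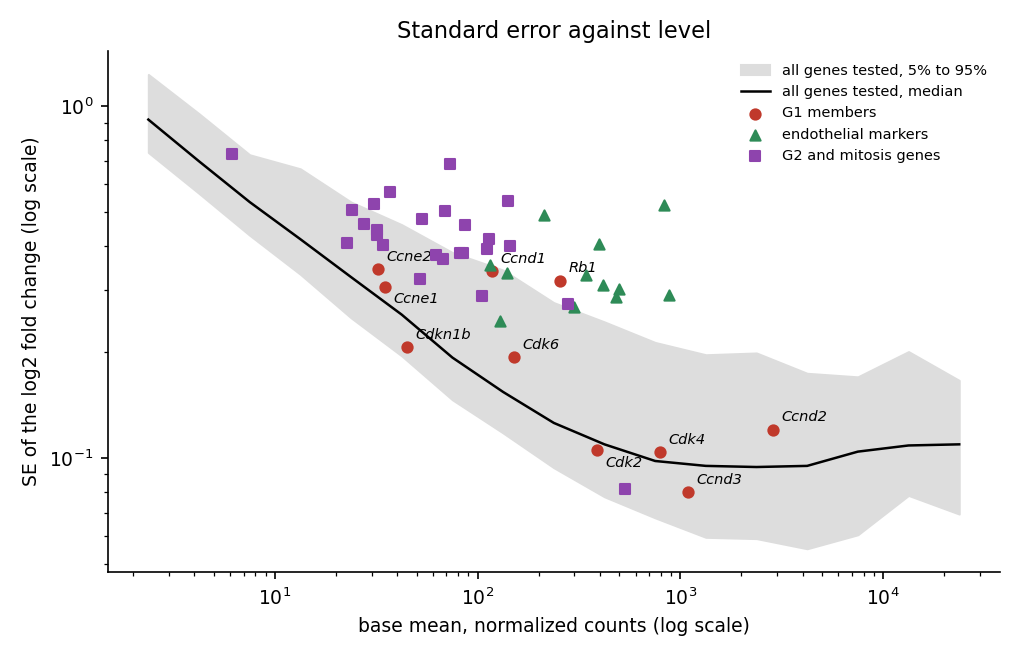
SE of the log2 fold change against base mean (both axes on log scales) for the 10 members, the endothelial markers and the genes of G2 and mitosis, over the median and the central 90% of all genes tested. Rb1 and Ccnd1 lie well above the median line at their level, with SEs of 0.32 and 0.34, and Cdk2, Cdk4, Ccnd2 and Ccnd3 lie near it.

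Further genes around this switch were taken as a list of 35 partners and regulators, of which 34 were tested. In it 5 rose and 5 fell, a share of the list near that of all genes, with a median log2 fold change of -0.03 against 0.02 over all genes tested. The inhibitor Cdkn1a (p21), a target of p53, stood far from the rest: it rose from 412 to 2875 normalized counts, and the authors' deposited table gave 2.80 (SE 0.24, adjusted Wald p = 2.9e-29). Myc, a growth-factor-induced activator of G1 genes, rose from 41.4 to 96.7 normalized counts, 1.22 (SE 0.31) on the log2 scale in the authors' deposited table (adjusted Wald p = 4.1e-04). The homeobox gene Meis1, known as a brake on cardiomyocyte proliferation, rose by 0.31 (SE 0.07), and Ambra1, part of the ligase that degrades D cyclin proteins, by 0.34 (SE 0.10) in the authors' deposited table. Cdc25a fell from 148 to 109 normalized counts, -0.44 (SE 0.13) on the log2 scale in the authors' deposited table (adjusted Wald p = 0.00326). Under total-count scaling Cdc25a was at -0.16 and not called.

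Of the 8 E2F factors 0 rose (0 also at an unadjusted Wald p under 0.05) and 2 fell, beside 16.6% of all genes that rose and 17.4% that fell. E2f6, a repressor that works without Rb1, fell from 1884 to 1267 normalized counts, a log2 fold change of -0.57 in the authors' deposited table (SE 0.07, adjusted Wald p = 2.6e-13), and E2f4, the main partner of Rbl1 and Rbl2, had -0.32 (SE 0.09, adjusted Wald p = 0.00176) in the authors' deposited table. E2f1, an activator released by Rb1, had a base mean of 51.0 normalized counts and a log2 fold change of 0.31 (SE 0.47) in the authors' deposited table, past no threshold. With both groups set to the same total, E2f4 had a log2 fold change of -0.04 and was no longer called, while E2f6 still was at -0.28.

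Under the authors' scaling, the kinase that activates CDKs by phosphorylation showed no common direction among its parts. In the authors' deposited table Ccnh fell by 0.28 (SE 0.07), Mnat1 rose by 0.44 (SE 0.12), and Cdk7 had -0.03 (SE 0.08), on the log2 scale. The fall of Ccnh was lost under total-count scaling, where its value was 0.01. Fbxw7, which marks cyclin E protein for destruction and had the largest base mean of the list at 1965 normalized counts, had a log2 fold change of -0.11 (SE 0.08) in the authors' deposited table. Among the INK4 inhibitors, which block Cdk4 and Cdk6, Cdkn2c fell from 100.02 to 63.7 normalized counts, a log2 fold change of -0.65 in the authors' deposited table (SE 0.21, adjusted Wald p = 0.00978), and under total-count scaling it was -0.36 and not called. Cdkn2d, the most abundant, had -0.10 (SE 0.12) in the authors' deposited table, and Cdkn2a had a base mean of 0.0928 normalized counts and no adjusted p.

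Genes of S phase were examined next, as the step after the switch. Of 25 tested, 4 rose and 1 fell, with a median log2 fold change of 0.11, while 16.6% of all genes rose and 17.4% fell. The share of the list that rose was thus close to that of all genes. The risers were 3 of the 6 subunits of the replicative MCM helicase and Pcna, the sliding clamp of DNA polymerase. Mcm6 rose from 214 to 432 normalized counts, Mcm7 from 202 to 318 and Mcm4 from 218 to 328. On the log2 scale the authors' deposited table listed 1.01 (SE 0.33) for Mcm6, 0.65 (SE 0.18) for Mcm7 and 0.59 (SE 0.20) for Mcm4, with adjusted Wald p of 0.00873, 0.002 and 0.0105. Of the other 3 subunits, Mcm3 and Mcm5 had 0.67 (SE 0.33) and 0.60 (SE 0.31) in the authors' deposited table and did not pass, and Mcm2, the most abundant, had -0.0088 (SE 0.24). Pcna went from 220.04 to 271 normalized counts, 0.30 (SE 0.11) in the authors' deposited table (adjusted Wald p = 0.0216).

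Of the 25 S-phase estimates 10 lay below 0. Ung, a uracil-DNA glycosylase, fell from 64.8 to 29.3 normalized counts, a log2 fold change of -1.14 in the authors' deposited table (SE 0.24, adjusted Wald p = 2.0e-05). The ribonucleotide reductase subunits Rrm1 and Rrm2 had -0.05 (SE 0.14) and -0.91 (SE 0.51) in the authors' deposited table, neither past the threshold, and Ccna2, the cyclin of S phase, had -0.31 (SE 0.55). Under total-count scaling 10 S-phase genes were higher and 1 lower, in place of 4 and 1, while 40.4% of all genes were higher and 6.6% lower.

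Genes of G2 and mitosis had the lowest median of the cell cycle lists, -0.35 over 25 genes, and 1 rose and 1 fell, where 34.1% of all genes were called. Below 0 were 21 of the 25 estimates, where the median over all genes tested was 0.02. Large SEs, by the mark used above, were seen in 18 of the 25, and the count of signs was not tested. Cenpa, a histone variant of centromeres, rose from 478 to 584 normalized counts, 0.29 (SE 0.08) in the authors' deposited table (adjusted Wald p = 0.00227). Cenpf, a protein of the kinetochore, fell from 344 to 216, a log2 fold change of -0.67 in the authors' deposited table (SE 0.27, adjusted Wald p = 0.0442). Top2a, which untangles DNA before division, had -0.53 (SE 0.40) in the authors' deposited table and did not pass. Under total-count scaling the median of the list was -0.06, Cenpa was the 1 gene called, against 47% of all genes, and Cenpf, at -0.38, was not.

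**Figure D4:**
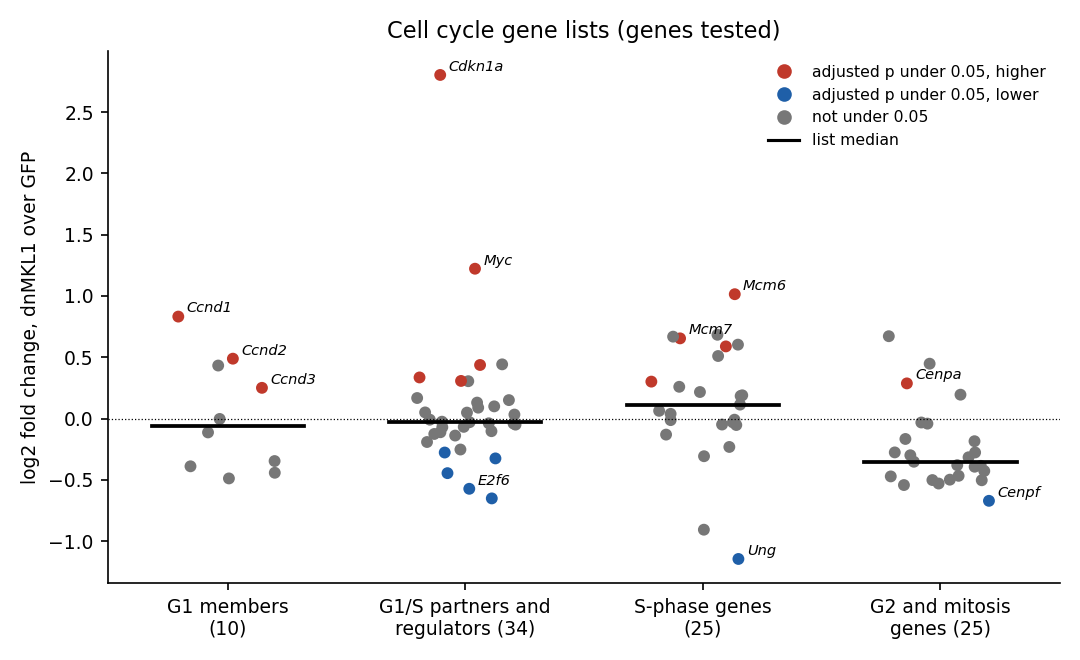
Log2 fold change of dnMKL1 over GFP (y axis) in the authors' deposited table for each tested gene of the 10 G1 members and of the 3 further lists, colored by the deposited adjusted p, with black bars at the list medians. The medians run from -0.35 for G2 and mitosis genes to 0.11 for S-phase genes, and Cdkn1a stands apart at 2.80.

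Exons of 8 of the 10 members overlap exons of another annotated gene on the opposite strand. Since the use of strand in counting is not given in the sources used here, reads from such stretches cannot be assigned with certainty. The overlap is widest for Ccnd1, where 23.4% of the merged exon bases are shared with LTO1 (matched to the table's Oraov1 through RefSeq synonyms), and that gene too rose in the authors' deposited table, by 0.35 (SE 0.11) with a base mean of 209 normalized counts (adjusted Wald p = 0.00707). For Cdk4 the share is 19.7%, with Tspan31 (0.20, adjusted Wald p = 0.0115 in the authors' deposited table), and for Ccne2 it is 17.4%, with Ints8 (0.31, adjusted Wald p = 0.00132). For Ccnd2 no overlapping gene covers more than 3.95% of the exon bases, and for Ccnd3 the share is 4.11%, with Bysl, at -0.29 in the authors' deposited table (adjusted Wald p = 0.0065).

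Promoter windows from RefSeq (GRCm38.p6, 250 bases before to 50 after a start site) were matched for 6 members, with 7 windows in all: Ccnd3, Ccne1, Cdk2, Cdk4, Cdk6 and Cdkn1b. Ccnd1, Ccnd2, Ccne2 and Rb1 had no window, so Ccnd3 is the only D cyclin covered. The CArG box, the site of SRF, was found in 0 of the 7 on either strand, against 1.63% of all 32851 windows. With a site this rare, 7 windows are too few for a count of 0 to tell anything. An E2F site, written as TTTCCCGC, TTTGGCGC, TTTCGCGC or TTTGCCGC, was found in 1 of 7, that of Cdk2, against 2.26% of all. A match or its lack describes these letters in these windows only.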

How the data were processed

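Mouse heart muscle cells were profiled by polyA RNA sequencing in 5 GFP and 5 dnMKL1 libraries. Per the submitters' processing notes the tools were CASAVA 1.8, STAR 2.5.3a and featureCounts (Subread 1.5.2) on mm10. The annotation and strand setting are not given in the sources used here. Per the labels' protocols, 10 ng of RNA gave cDNA over 8 PCR cycles, and 500 pg of cDNA entered each library. Per the file headers, the authors' table holds DESeq2 results. Its base mean is a deposited signal in counts divided by size factors. The authors give fold changes with SEs as log2 values, a deposited Wald score, and deposited p-values, raw and adjusted. The deposited adjusted p-value equals a Benjamini-Hochberg recomputation over 14056 genes within 1.4e-07.

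Computed here (Python 3.11.15, pandas 2.3.3, scipy 1.17.1) were implied group means, with the base mean read as their midpoint, 95% Wald intervals, library totals from size factors of genes with 1 read, and lengths from GENCODE M21. Totals carry counting error only, without molecular identifiers. Wald calling with Benjamini-Hochberg adjustment and the recovery of size factors were tested on simulated data. The simulated fold changes took the deposited SEs as true, so the calling test could not show whether those SEs are sound. Implied means were checked only by computing the deposited fold changes back from them. Intervals, library totals and lengths were not tested in this way. Per the labels' design text the libraries of a group are biological replicates; whether animals were pooled is not stated there.

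The design foresaw deposited Wald tests. Members and lists were chosen with earlier results of these data known. Named are all members, the 8 genes of each further list with the smallest adjusted p among those called, and the 3 with the largest base mean. Cdc25a, Cdkn2c, Cdkn2d, Cdkn2a, Rbl1, Rbl2, E2f1, Cdk7, Mcm3, Mcm5, Rrm2 and Ccna2 were named after their values were seen. The same holds for the mural markers Pdgfrb, Rgs5 and Kcnj8. Likeness of pattern between genes was not computed, since 2 group values give none.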

Additional observations from a re-analysis of the deposited data

How the results depend on the processing

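No paired analysis was possible because the analysed table gives group results without values for each numbered library, and fits that leave out a replicate were not run for that reason. Whether 1 library decides a value is unknown.

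The D cyclins were above 0 under every setting tried, but only total-count scaling and median centring alter a fold change at all. Total-count scaling raises every value by 0.29, and median centring moved Ccnd3 only from 0.251 to 0.247. These settings were thus no real test of the sign. Of the 10 members, 3 were called by the main rule, 2 at an adjusted p under 0.01, 2 with adjustment over every p-value, 4 under total-count scaling and 1 when an absolute log2 fold change of at least 0.5 was also required, which leaves Ccnd1 alone by construction. Total-count scaling reversed Cdk2 to 0.29 and Cdk4 to 0.18, by the shift itself. With that minimum fold change, 4 of the G1/S partners, 1 of the G2 and mitosis genes and 2735 of all genes were called. S-phase calls went from 5 to 3 at an adjusted p under 0.01 and to 11 under total-count scaling. Calls in G2 and mitosis went from 2 to 1 at 0.01, over every p-value and under total-count scaling. Total-count scaling also turned the split of the G1/S partners from 5 higher and 5 lower to 8 and 1, and that of all genes from 2340 and 2452 to 5685 and 927. The longest coding transcript, chosen after seeing the data, gave D cyclin shares in GFP of 2.59% (Ccnd1), 43.3% (Ccnd2) and 54.1% (Ccnd3). Minimum base means of 10 and 100, an adjusted p under 0.1 and median centring changed no member's call among those tested. Depth limits the E cyclins and Cdkn1b, with base means of 32.2 to 44.9 normalized counts.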
